A study of Mus musculus with 15 samples.

Results

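The 10 genes described here encode enzymes that carry squalene to cholesterol, the late part of sterol synthesis, and were measured in mouse liver on Affymetrix arrays. Every probe set annotated to Sqle, Lss, Cyp51, Tm7sf2, Msmo1, Nsdhl, Hsd17b7, Ebp, Sc5d or Dhcr7 was taken, which gave 20 probe sets for these 10 of the 18193 genes tested. The study asked how coffee changes the liver under a high-fat diet. Male C57BL/6J mice, aged 7 weeks when feeding began, ate their diet freely for 9 weeks, and liver RNA of 15 animals was then hybridised, 1 mouse per array and 3 mice per group. The normal diet (ND) group received 10% of its energy as fat and the high-fat (HF) group 60%. The other 3 groups ate the HF diet with 2% coffee, which was caffeinated (HFCC), decaffeinated (HFDC) or green unroasted (HFGC). No group received coffee on the normal diet, so the coffee groups differ from ND in both fat and coffee.

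Cholesterol synthesis in the liver runs from acetyl-CoA through mevalonate to squalene, and the enzymes studied here then close the sterol rings, strip methyl groups and move and reduce double bonds. The transcription factor SREBP-2 drives nearly all of these genes together. Its precursor is held in the endoplasmic reticulum by Scap and Insig proteins while membrane sterol is plentiful and is released for cleavage when sterol falls. In sterol-regulated promoters SREBP-2 is known to act beside NF-Y, which binds CCAAT boxes, and Sp1, which binds GC boxes.

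Levels are given as log2 of the deposited array intensity, so that a difference of 1 is a doubling. Such levels compare 1 probe set between mice and not different genes with each other. Because whole liver was measured, fewer cells of a type and less RNA per cell cannot be told apart. Hepatocyte transcripts were abundant on every array, with Alb (albumin) between 14.72 and 14.78, close to the top of the normalised range, where differences between groups can hardly show. Of the 6 hepatocyte markers 0 were called between HF and ND. Tat, tyrosine aminotransferase, lay below that range, and its mean was 11.90 in ND, 11.45 in HF (adjusted p = 0.26 in limma) and 12.20 in HFCC (0.12 against HF). Among the 29 measured markers of the other cell types, 3 were called higher in HF than in ND, against 8.92% of all genes, and 0 lower. They were Stab2 of sinusoidal endothelium (log2 difference 0.49), Col3a1 of fibroblasts (0.70) and Alas2 of red cells (0.43). The other markers of these cell types were not called. The 5 endothelial markers ran from -0.58 (Lyve1) to 0.49, with a median of 0.04. The 5 stellate cell or fibroblast markers ran from -0.04 to 0.70 (median 0.008), and the 2 red cell markers from -0.06 (Hba-a1) to 0.43. Hba-a1 was dim, between 3.76 and 4.09 on every array, where a difference could hardly show. The part of these markers in the results was not tested. The 3' minus 5' signal of the control transcripts, a log2 value that rises as RNA degrades, was 1.22 ± 0.17 (SD, n = 3) in HF, 0.88 ± 0.06 in ND and between 0.82 and 0.93 on average in the coffee groups, so it moved with the HF group.

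The promoters of these genes are shown because their transcripts moved together. RefSeq promoter windows (build GRCm38.p6) were at hand for 9 of the 10 genes, all but Sqle, and 3 of the windows belonged to Dhcr7. Motifs were searched on both strands. The letters CCAAT occurred on either strand in the 250 bases before a start site in 9 of the 9 genes, against 37.49% of the 27025 genes with a window. The GC box GGGCGG was likewise present in 9 of 9, against 35.36% of all genes. The E-box CACGTG was found in 3 of 9, against 6.86%, and the strict SREBP element TCACNCCAC in 0 of 9, against 1.22%. Its shorter core CACNCCA, whose letters lie within the strict element, was found in Msmo1 alone, against 17.41% of all genes. These shares were over all genes with a window, which were not matched to the 9 for expression, base composition or number of windows. The part of the motifs in the shared movement was not tested. A match is a string of letters and not a measured binding site. Sites that differ from the searched letters were not counted, so a missing match does not show that a site is absent. The 110 bases before the start are printed below for 5 of these 9 with larger differences between the diets and for Ebp, which varied little, with each CCAAT box or its reverse complement in capitals:
Msmo1, chr8:64733579-64733688, minus strand: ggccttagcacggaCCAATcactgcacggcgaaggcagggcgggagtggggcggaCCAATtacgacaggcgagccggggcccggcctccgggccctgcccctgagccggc
Cyp51, chr5:4104698-4104807, minus strand: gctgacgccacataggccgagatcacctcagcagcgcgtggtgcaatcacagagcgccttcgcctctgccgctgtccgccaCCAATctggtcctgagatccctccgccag
Nsdhl, chrX:72918411-72918520, plus strand: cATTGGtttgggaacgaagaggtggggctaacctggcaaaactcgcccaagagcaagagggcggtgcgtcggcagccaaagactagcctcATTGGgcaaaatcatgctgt
Lss, chr10:76531495-76531604, plus strand: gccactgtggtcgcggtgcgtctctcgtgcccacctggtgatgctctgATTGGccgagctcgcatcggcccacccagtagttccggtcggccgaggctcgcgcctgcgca
Dhcr7, chr7:143830104-143830213, plus strand: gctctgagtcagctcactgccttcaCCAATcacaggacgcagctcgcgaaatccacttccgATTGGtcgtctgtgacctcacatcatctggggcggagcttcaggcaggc
Ebp, chrX:8193513-8193622, minus strand: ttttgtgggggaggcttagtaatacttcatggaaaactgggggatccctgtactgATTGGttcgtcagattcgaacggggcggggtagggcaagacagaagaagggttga
Msmo1 held 3 CCAAT boxes in its 250 bases, at 160, 96 and 55 bases before the start, of which the last pair is printed. Cyp51 held 1, and Nsdhl, Ebp and the printed Dhcr7 window held 2 each, of which 1 is printed for Ebp. The other Dhcr7 windows held none.

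All 10 enzymes differed among the 5 groups by limma's moderated F test, with adjusted p-values from 0.00094 (Msmo1) to 0.0497 (Tm7sf2), where 7.27% of all genes passed at an adjusted p under 0.05. By the 1 probe set used per gene, the group means of 8 of the 10 fell in the same order. It was HFCC above HFGC above HF above HFDC above ND. The exceptions were Sc5d, in which HFDC lay above HF, and Tm7sf2, whose highest mean was in HF and lowest in HFDC. HFCC had the highest mean for 9 genes and ND the lowest for 9. This is an order of means only. Its ends, HFCC and ND, were not compared by a test, and neither were HFDC and ND. Between the other neighbours 0 of the 10 were called, as given below.

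**Figure D1:**
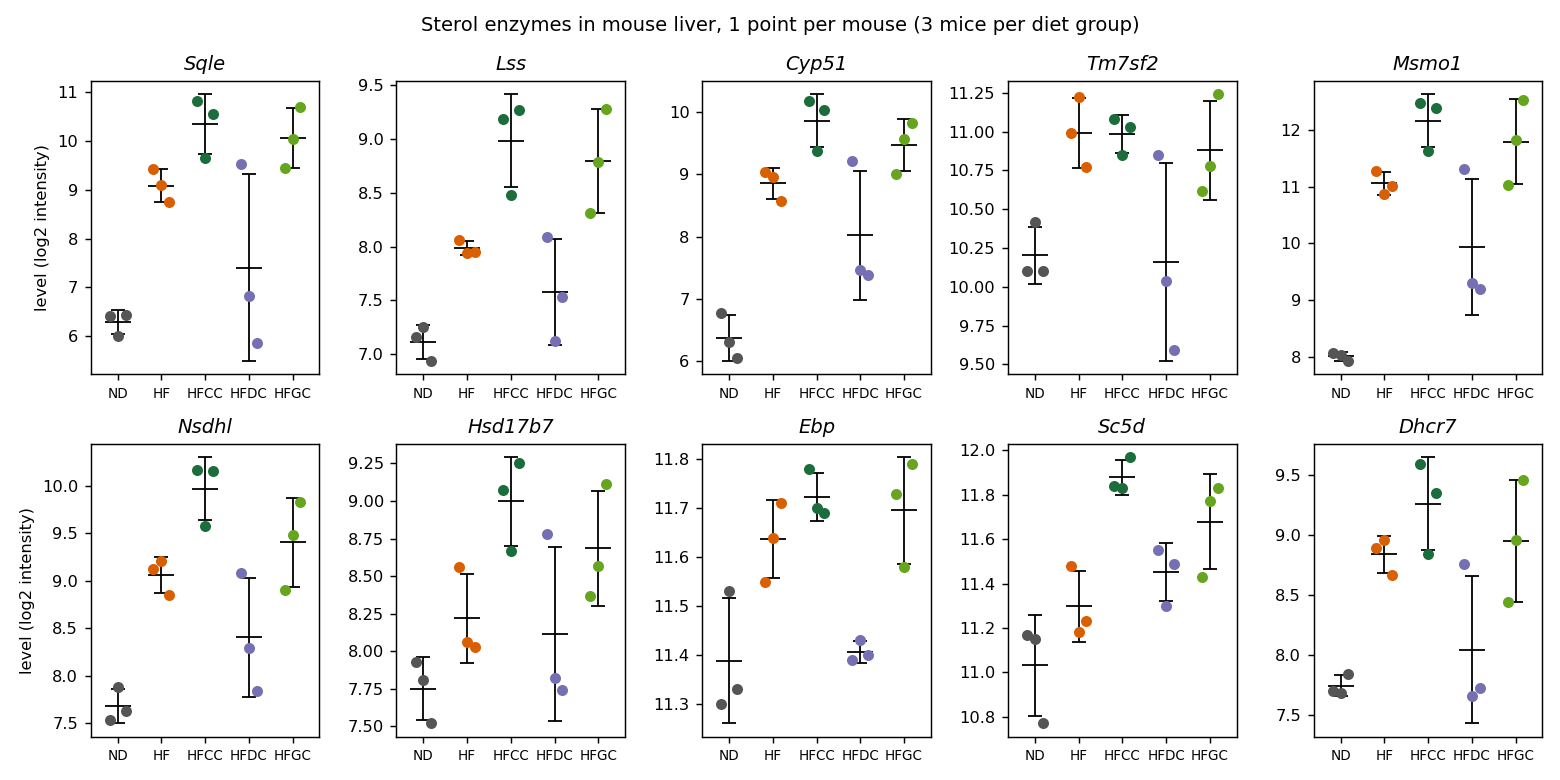
Level of each of the 10 enzymes (log2 intensity of the probe set used, vertical axes differ between panels) in the 5 diet groups, with 1 point per mouse and the mean ± SD of 3 mice in black. The 3 HF mice lie above the 3 ND mice in all 10 panels, and in most panels 1 HFDC mouse lies at the HF level and the other 2 lower.

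The high-fat diet was accompanied by higher levels of 8 of the 10 enzymes, by between 1.19-fold (Ebp) and 8.30-fold (Msmo1), with Sqle at 6.97-fold and Cyp51 at 5.58-fold. In limma, 8 of 10 were called higher in HF than in ND and 0 lower, while 8.92% of all genes were called higher. By the probe sets used, all 3 HF mice lay above all 3 ND mice in 10 of the 10 enzymes, which held for 15.7% of all genes. The median log2 difference of the 10 was 0.98, and that of all genes was -0.0015.

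Sqle encodes squalene epoxidase, which adds oxygen to squalene and is a rate-controlling step of the late pathway. Its level was 6.42, 6.01 and 6.44 in the ND mice and 9.42, 9.10 and 8.75 in the HF mice. The groups lay far apart, and HF exceeded ND by 2.80 ± 0.64 (SE, limma, adjusted p = 0.012). Lss, lanosterol synthase, folds the oxidised chain into the first sterol. It stood at 7.16, 7.25 and 6.94 in ND and at 8.06, 7.94 and 7.95 in HF, a difference of 0.87 ± 0.25 (adjusted p = 0.035). Here too no HF mouse came down to the ND level, although the step was smaller than for Sqle.

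The enzymes that demethylate lanosterol showed some of the largest differences. Cyp51, the cytochrome P450 that removes the first methyl group, was at 6.77, 6.31 and 6.05 in ND and at 9.04, 8.96 and 8.57 in HF, a difference of 2.48 ± 0.38 (limma, adjusted p = 0.0022). Msmo1, the methylsterol monooxygenase, was at 8.06, 8.03 and 7.93 in ND and at 11.28, 10.88 and 11.02 in HF. The Msmo1 difference of 3.05 ± 0.45 (limma, adjusted p = 0.0018) was the largest of the 10, and mice within either group were close together. Nsdhl and Hsd17b7 complete the removal of the same methyl groups, as a dehydrogenase and a reductase. Nsdhl was at 7.53, 7.88 and 7.63 in ND against 9.13, 9.21 and 8.85 in HF, a difference of 1.39 ± 0.27 (limma, adjusted p = 0.0062). Hsd17b7 was at 7.93, 7.81 and 7.52 in ND and at 8.56, 8.06 and 8.03 in HF, so its groups did not overlap, yet its difference of 0.47 ± 0.26 did not pass (limma, adjusted p = 0.25).

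Among the enzymes acting on double bonds, Dhcr7, the reductase of the last step, was at 7.70, 7.68 and 7.84 in ND and at 8.89, 8.96 and 8.67 in HF. All HF mice were higher, by 1.10 ± 0.28 (limma, adjusted p = 0.018). Tm7sf2, a sterol reductase acting after Cyp51, was at 10.10, 10.42 and 10.10 in ND and at 10.99, 11.22 and 10.77 in HF, a difference of 0.79 ± 0.24 (limma, adjusted p = 0.042). Ebp, the isomerase that shifts the ring double bond, ranged from 11.30 to 11.53 in ND and from 11.55 to 11.71 in HF, a difference of only 0.25 ± 0.08 (limma, adjusted p = 0.046). Sc5d, a sterol desaturase, was at 11.17, 11.15 and 10.77 in ND and at 11.48, 11.18 and 11.23 in HF. Its ranges nearly touched, and its difference of 0.27 ± 0.13 did not pass (limma, adjusted p = 0.18).

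The calls of Lss, Tm7sf2, Ebp and Dhcr7 depended on single arrays, and all 8 calls were lost when the 3' minus 5' value entered the fit. Those of Sqle, Cyp51, Msmo1 and Nsdhl held whichever single mouse was left out. The 8 calls became 5 without ND mouse 1, 5 without ND mouse 3, 4 without HF mouse 2 and 5 without HF mouse 3, and also 5 after cyclic loess normalisation. With that value in the fit, 0 of 10 were called, and the differences remained positive, from 0.26 (Ebp) to 2.79 (Msmo1). Of all genes 14 were then called in either direction, where 1622 were called higher and 843 lower without it. The value was highest in the HF mice, so in this comparison it can hardly be told apart from the diet.

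**Figure D2:**
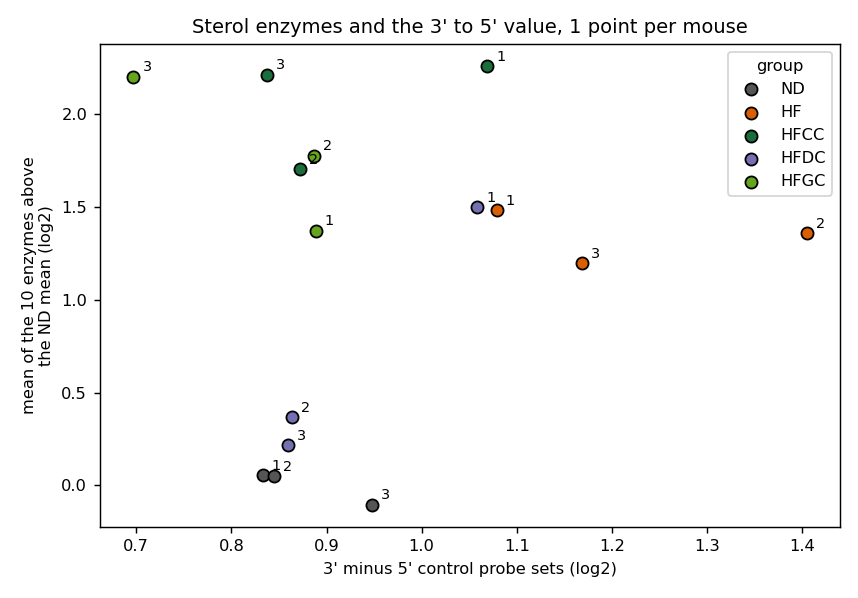
Mean of the 10 enzymes in each mouse above the ND mean (vertical, log2) against the 3' minus 5' value of the control transcripts (horizontal, log2), with 1 numbered point per mouse. The HF mice hold the highest 3' minus 5' values (1.08 to 1.40), with enzyme means of 1.20 to 1.48. The HFCC and HFGC mice have enzyme means of 1.37 to 2.26 and 3' minus 5' values of 0.70 to 1.07, where ND spans 0.83 to 0.95. In HF against ND the diet and the 3' minus 5' value can hardly be told apart.

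The coffee groups differ from ND in both fat and coffee, and their 3' minus 5' values were nearer to those of ND than the HF values were. Taken as 1 set of 9 mice they were above ND in 8 of 10 enzymes by limma (2.36% of all genes called higher, 1.73% lower), and the same count held with the 3' minus 5' covariate. The differences were 3.29 for Msmo1 (adjusted p = 0.00033), 2.98 for Sqle (0.0079), 2.74 for Cyp51 (0.00038), 1.58 for Nsdhl (0.0018) and 1.33 for Lss (0.0036). Dhcr7 (1.01), Hsd17b7 (0.85) and Sc5d (0.64) were also called. Tm7sf2 (0.47, adjusted p = 0.20) and Ebp (0.22, adjusted p = 0.065) were not. Of the 29 markers of other cell types 1 was called higher here, against 2.36% of all genes. It was the fibroblast marker Col3a1 (0.48, limma adjusted p = 0.0496). The 5 stellate cell or fibroblast markers ran from -0.02 to 0.48 (median 0.01), and their part in the result was not tested. All 9 coffee mice were above all 3 ND mice in 3 of the 10 enzymes, against 2.96% of all genes, and the HFDC mice described below lay lowest.

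**Figure D3:**
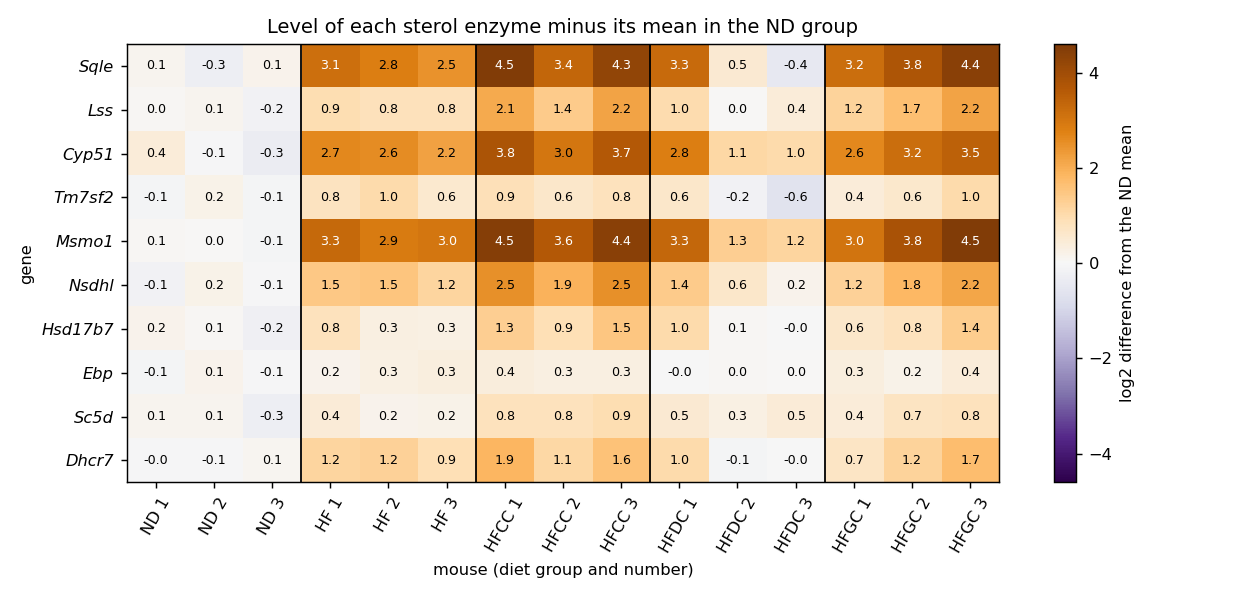
Level of each enzyme in each of the 15 mice minus its ND mean (colour and printed value, log2). The rows for Sqle, Cyp51 and Msmo1 run from near 0 in ND to above 4 or near it in HFCC, and HFDC mice 2 and 3 stand out as low columns among the mice on the high-fat diet.

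The group on caffeinated coffee had the highest mean level for 9 of these 10 enzymes. The 3 HFCC mice were at 10.82, 9.65 and 10.56 for Sqle, at 12.48, 11.64 and 12.39 for Msmo1 and at 10.17, 9.37 and 10.03 for Cyp51. By the probe set used, every HFCC mouse lay above every HF mouse in each of these genes, and mouse 2 was the lowest of the HFCC group. Such a separation was found in 7 of the 10 enzymes, against 7.5% of all genes, and the exceptions were Tm7sf2, Ebp and Dhcr7. Some other probe sets of these enzymes overlapped. In Msmo1 1459627_at HFCC mouse 2 was at 6.93 and the HF mice at 7.29 to 7.38. Hsd17b7 1417871_at and 1457248_x_at and the dim probe sets of Lss, Hsd17b7 and Sc5d overlapped as well. Lss 1426913_at, Sc5d 1434520_at and both other Cyp51 probe sets separated. The differences from HF were 1.26 for Sqle (adjusted p = 0.32), 1.11 for Msmo1 (0.20), 1.00 for Cyp51 (0.17), 1.00 for Lss (0.058) and 0.91 for Nsdhl (0.084), none of which passed. Sc5d was the 1 enzyme called, at 11.84, 11.83 and 11.97 in HFCC, all above the HF mice, with a difference of 0.58 ± 0.13 (limma, adjusted p = 0.038, 0.379% of all genes called higher). At an unadjusted p under 0.05, 6 of 10 were higher, against 7.16% of all genes. The Sc5d call did not hold in the fit over all probe sets (adjusted p = 0.053), with probe sets averaged, or with the 3' minus 5' covariate (adjusted p = 0.51), and leaving out single mice gave between 0 and 3 called enzymes.

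The HFGC mice lay between HF and HFCC on average. Sqle was at 9.45, 10.04 and 10.70 and Msmo1 at 11.04, 11.82 and 12.54, with mouse 1 at the HF level and mouse 3 at the HFCC level in both. The dimmer Msmo1 probe set 1459627_at went the other way, with all HFGC mice below all HF mice. It differed by -0.595 (limma over all probe sets, adjusted p = 0.53). Of the 20 probe sets of the enzymes, 16 were higher on average in HFGC than in HF. Against HF, 0 of 10 were called by limma (0.781% of all genes called higher, 2.31% lower) and 2 were higher at an unadjusted p under 0.05 (8.59% of all genes), namely Lss (0.81, adjusted p = 0.085) and Sc5d (0.38, adjusted p = 0.098). Against HFCC all 10 differences were negative, from -0.57 (Nsdhl, 95% interval -1.14 to 0.01) to -0.03 (Ebp, -0.19 to 0.14), with 0 of 10 below an unadjusted p of 0.05 (1% of all genes were lower at that level) and 0% of all genes called in either direction. The interval for Sqle ran from -1.65 to 1.09, so differences of that size between green and caffeinated coffee could not be resolved in this fit with 3 mice each. The fit pools the spread over all 5 groups, so the wide HFDC spread entered this interval too. The SD of Sqle was 1.91 in HFDC, 0.61 in HFCC and 0.62 in HFGC.

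Decaffeinated coffee gave a divided group. HFDC mouse 1 was at 9.54 for Sqle, 11.32 for Msmo1, 9.21 for Cyp51 and 9.08 for Nsdhl, between 0.01 and 0.45 above the HF mean. Mice 2 and 3 were at 6.82 and 5.86 for Sqle, on either side of the ND mice, and at 7.66 and 7.72 for Dhcr7, where ND spanned 7.68 to 7.84. For Msmo1 they were at 9.30 and 9.19 and for Cyp51 at 7.47 and 7.38, which lay between ND and HF. The mean of the 10 enzymes above ND was 1.498 in mouse 1, 0.37 in mouse 2 and 0.22 in mouse 3, while the HF mice were at 1.48, 1.36 and 1.20. Hence 1 mouse resembled HF and the other 2 were close to ND for most enzymes. Ebp did not share this split, at 11.39, 11.43 and 11.40, and neither did the Sc5d probe set used, 1451457_at, at 11.55, 11.30 and 11.49. The other bright Sc5d probe set, 1434520_at, did show it. There HFDC mouse 1 was at 9.86, among the HF mice (9.73 to 9.87). Mice 2 and 3 lay below all HF mice and above all ND mice (8.73 to 9.08).

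The spread within HFDC was accordingly wide. The SD of Sqle was 1.91 in HFDC against 0.24 in ND, and that of Msmo1 was 1.20 against 0.07. For 8 of the 10 enzymes, all but Ebp and Sc5d, the HFDC SD lay at or above the 99.0th percentile of all genes. The median SD of the 10 was 0.62 in HFDC, 0.45 in HFGC, 0.36 in HFCC, 0.20 in HF and 0.18 in ND, whereas that of all genes was 0.08 in HFDC and 0.12 in ND. When all genes were ranked by mouse 1 minus the mean of mice 2 and 3, 8 of the 10 enzymes were within the top 100. The same ranking placed the red cell genes Hemgn (3.39) and Slc4a1 (2.91), the insulin-responsive Igfbp1 (2.80) and the proliferation gene Mki67 (2.20) near the top, all of which were chosen after their values were seen. Hemgn was at 7.34 in HFDC mouse 1, at 3.99 and 3.91 in the others and at 5.80 in HFCC mouse 1, the next highest. The red cell marker Alas2 was at 10.00, 9.82 and 9.92. The 3' minus 5' value was 1.06 in mouse 1 and 0.86 in both others. The part of these differences in the split was not tested. The labels name no difference between the 3 HFDC mice, and whether each of these arrays carries the right label was not tested, which bears on every HFDC value given here.

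As a group, HFDC lay below HF for 9 of 10 enzymes, by 1.68 for Sqle (adjusted p = 0.13), 1.12 for Msmo1 (0.16), 0.83 for Tm7sf2 (0.058) and 0.80 for Dhcr7 (0.10). By limma 0 of 10 were called (3.7% of all genes called lower and 1.31% higher) and 7 were lower at an unadjusted p under 0.05, against 13.2% of all genes. Without HFDC mouse 1, 5 were called lower, namely Sqle, Cyp51, Tm7sf2, Msmo1 and Dhcr7, where 0.83% of all genes were, and 0 were called without mouse 2 or without mouse 3.

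Decaffeinated and caffeinated coffee were then compared with each other. All 10 enzymes were lower in HFDC than in HFCC, by between 0.32 (Ebp) and 2.94 (Sqle), and 10 of 10 passed an unadjusted p under 0.05, where 3.77% of all genes were lower at that level. By the probe sets used, every HFCC mouse lay above every HFDC mouse in 8 of 10, against 7.18% of all genes. The other Msmo1 probe set, 1459627_at, overlapped, with HFCC mouse 2 at 6.93 and HFDC mouse 1 at 6.94, and so did the dim Sc5d 1424709_at. In this comparison Nsdhl was the 1 enzyme called, at 10.17, 9.58 and 10.16 in HFCC and 9.08, 8.29 and 7.84 in HFDC, groups that did not overlap, with a difference of -1.57 ± 0.27 (limma, adjusted p = 0.042, 0.0605% of all genes called lower). The Nsdhl call was kept under 8 of 26 other settings, with adjusted p-values up to 0.24. Lss (-1.40, adjusted p = 0.058), Msmo1 (-2.23, 0.075) and Cyp51 (-1.84, 0.088) did not pass. Without HFDC mouse 1 the count was 8 (0.17% of all genes called lower), and without HFDC mouse 2 or 3 it was 0. Between HFGC and HFDC 0 of 10 were called by limma (0.0165% of all genes called higher, 0.022% lower), 9 were higher in HFGC at an unadjusted p under 0.05 (3.5% of all genes), and 5 were called without HFDC mouse 1 (0.0879% of all genes called higher).

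All 3 coffee groups together exceeded HF in Sc5d only, by 0.37 ± 0.10 (limma, adjusted p = 0.034), where 3.39% of all genes were called higher and 6.88% lower. At an unadjusted p under 0.05 there were 2 of 10 higher, against 10.7% of all genes. The pooled differences of the other enzymes lay between -0.32 (Tm7sf2) and 0.47 (Lss). The HFCC mean lay above HF for 9 of 10 enzymes and the HFDC mean below HF for 9 of 10. The call rested on 1 Sc5d probe set, since 1434520_at differed by 0.02 (unadjusted p = 0.83) and 1424709_at by 0.03 in the fit over all probe sets. It was lost with probe sets averaged and when the 3' minus 5' value entered the fit (adjusted p = 0.72), and also without HF mouse 2 or 3, without HFCC mouse 3, without HFDC mouse 1 or 3 and without HFGC mouse 2 or 3. The endothelial marker Stab2 was lower than in HF in these groups together (-0.36), in HFDC (-0.39) and in HFGC (-0.40). In the groups together the 5 endothelial markers ran from -0.36 to 0.28 against HF, with a median of 0.03. Their part in the results was not tested. All comparisons with HF share the same 3 HF arrays.

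**Figure D4:**
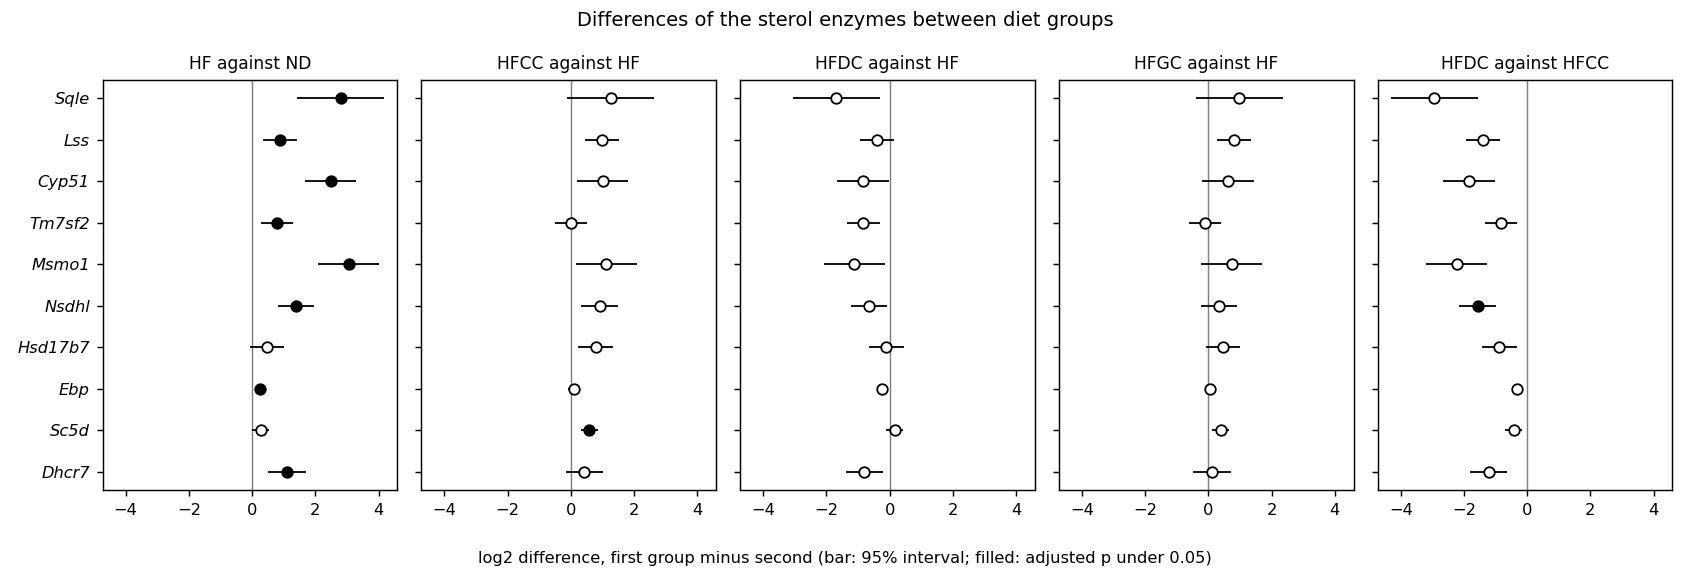
Log2 difference (horizontal) of each enzyme in 5 comparisons, first group minus second, with the 95% interval of the fit over all 15 arrays as a bar and filled points where the adjusted p was under 0.05. In HF against ND 8 points are filled and all lie to the right of 0. HFCC against HF has 1 filled point (Sc5d) and HFDC against HFCC has 1 (Nsdhl).

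The genes with several probe sets differed in how clearly they moved. In the fit over all probe sets 13 of the 20 were called higher in HF than in ND, where 5.98% of all 45037 probe sets were, and 15 of 20 were called higher in the coffee groups than in ND, where 1.58% of all were. Sc5d and Hsd17b7 each had another probe set that was called where the one used was not. Sc5d 1434520_at was at 8.90, 9.08 and 8.73 in ND and at 9.87, 9.75 and 9.73 in HF, a difference of 0.88 (limma, adjusted p = 0.0024), against 0.27 for the brighter 1451457_at. Hsd17b7 1417871_at differed by 1.03 (limma, adjusted p = 0.038) and was called, and 1457248_x_at, whose suffix marks probes that may bind other transcripts, differed by 0.85 (0.061), against 0.47 for 1448865_at. Lss 1426913_at differed by 1.65, more than the 0.87 of the probe set used. The dim probe sets Lss 1420014_at, Hsd17b7 1440057_at and Sc5d 1424709_at differed by 0.07 to 0.12 and were not called. Ebp, with a single probe set, missed the threshold in this larger fit (adjusted p = 0.057).

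**Figure D5:**
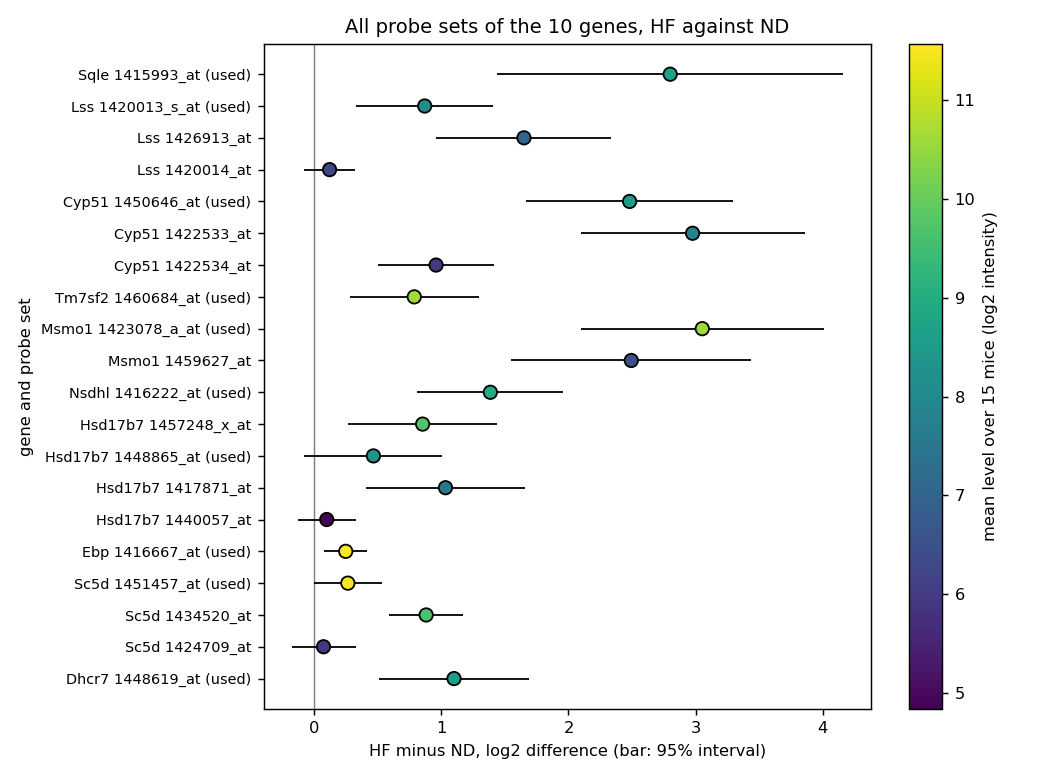
HF minus ND difference (horizontal, log2, with 95% interval) of all 20 probe sets, ordered along the pathway and coloured by mean level over the 15 mice (log2 intensity). The 4 Hsd17b7 probe sets run from 0.10 to 1.03 and the 3 Lss probe sets from 0.12 to 1.65, and in both genes the dimmest probe set shows the smallest difference.

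The enzymes varied together from mouse to mouse. Over the 15 mice the 45 pairs of enzymes had a median Pearson r of 0.89 (0.52 to 0.99), and after removal of each group's mean 41 of 45 remained positive with a median of 0.83. Leaving out HFDC as well gave a median of 0.73. Ebp was the exception, with a median r of 0.01 to the others within groups, and Sc5d followed at 0.46. These points share arrays and normalisation, and they are given as a description.

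The genes most like the mean profile of the 10 enzymes over the 15 mice were Ccdc25 (Pearson r = 0.99, Spearman rho = 0.97), Fdps (0.99, 0.97), Erg28 (0.98, 0.99), Tmem97 (0.98, 0.91) and Idi1 (0.98, 0.98), followed by Fdft1, Mvd, 3110045C21Rik, Mvk and Hmgcs1 with r between 0.95 and 0.97. Of these, Hmgcs1, Mvk, Mvd, Idi1, Fdps and Fdft1 are enzymes of the mevalonate pathway that supplies squalene. Ccdc25 had mean levels of 4.19 in ND, 6.13 in HF, 7.18 in HFCC, 4.94 in HFDC and 6.64 in HFGC, the same order of groups as Sqle.

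The upstream mevalonate pathway was higher in HF than in ND in 7 of its 8 measured genes by limma, against 8.92% of all genes. Its median difference was 1.74. Idi1, the isomerase of isopentenyl diphosphate, differed by 2.64 (adjusted p = 0.0036), Fdps, farnesyl diphosphate synthase, by 2.53 (0.0026) and Hmgcs1, which makes HMG-CoA, by 2.34 (0.0033). Ggps1, which diverts farnesyl groups to geranylgeranyl, was not called (-0.17). The HFDC split was present here as well, with mean values above ND of 1.55, 0.46 and 0.28 in mice 1, 2 and 3. Fdps and Mvd were lower in HFDC than in HFCC, with differences of -2.34 and -2.13 (both adjusted p = 0.042).

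Of 5 other enzymes and partners of late sterol synthesis (median 0.48), 4 were higher in HF than in ND, where 8.92% of all genes were called higher. Among them were Cyb5b (0.90), an electron donor of the cytochrome b5 type, and Erg28 (0.60), a scaffold of the demethylating enzymes. Cyb5b and Cyb5r3, a cytochrome b5 reductase, were lower in the coffee groups together than in HF (-0.32 and -0.36). Among 10 genes of SREBP processing and sterol sensing (median 0.12), 3 were higher in HF, namely Insig1 (2.11, adjusted p = 0.00057), itself a target of SREBP, Npc2 (0.48), which moves cholesterol out of lysosomes, and Scap (0.24). Srebf2, which encodes SREBP-2, differed by 0.17 (adjusted p = 0.39). Of 7 further targets of SREBP-2 (median -0.13), Tmem97 (0.86), Rdh11 (0.80) and Stard4 (0.58) were higher in HF than in ND, and Rdh11 (1.01) and the sterol carrier Stard4 (0.81) were higher again in HFCC than in HF.

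Related lipid pathways held few such calls. Of 8 SREBP-1 targets of fatty acid synthesis, 0 were higher and 1, the elongase Elovl6 (-0.98, limma adjusted p = 0.011), was lower in HF than in ND, where 4.63% of all genes were called lower. Their median difference was -0.20. Fatty acid synthase, Fasn, differed by -0.13 (adjusted p = 0.85). Of 10 genes of cholesterol use and export (median 0.08), 2 were lower in HF, the efflux pump Abca1 (-0.50) and the oxysterol hydroxylase Cyp7b1 (-0.64), and both were higher in HFDC than in HF (0.41 and 0.86). Cyp7a1, the rate-limiting enzyme of bile acid synthesis, was not called (-0.59, adjusted p = 0.35).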

How the data were processed

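Liver RNA of 15 mice was labelled and hybridised, 1 array per mouse. The authors deposited linear intensity values made with RMA, which corrects background, quantile-normalises and summarises probes per probe set (no version is stated). Quantile normalisation forces a common distribution, with array medians of 48.4 to 50.0, so a shift of all genes together cannot be seen. The deposited intensity values were taken to log2. Of 45101 probe sets, 64 controls were left out, and 34945 carried 1 gene symbol in the platform annotation, 932 several and 9160 none. Per gene the probe set with the highest mean was used, those ending in _x_at only where no other existed, which gave 18193 genes. limma 3.58.1 in R 4.3.3 fitted 5 group means with 10 residual degrees of freedom, and Benjamini-Hochberg adjustment ran over all genes, with calls at an adjusted p under 0.05. The fit was tested on simulated data. A difference is given with its SE, which pools the spread of a gene over all 5 groups. A wide spread in HFDC therefore also widened the SE of comparisons without HFDC.

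All 10 members were described in every comparison. From the pathway lists called genes with the largest differences and some that were not called were named, and the 10 genes nearest in pattern were ranked by Pearson r. The members and gene lists were chosen with earlier results of these data known. The 3' minus 5' value is the mean over the Gapdh and actin control probe sets. Motifs were searched with Python 3.11.15 in RefSeq promoter windows, 32851 in all. Replicate numbers are those of the labels. No 2 arrays were identical, and 3 arrays per group limit the precision. Alternatives were other probe set rules, normalisation, offset, covariate, threshold, model and leaving out each mouse. An alternative without the HFDC group was chosen after seeing the data.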

Additional observations from a re-analysis of the deposited data

Results flagged for a closer look

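The mean of Nsdhl lay above that of the same HF mice with caffeinated coffee and below it with decaffeinated coffee. All HFCC mice were above all HF mice. HFDC mouse 1 (9.08) was among the HF mice (9.13, 9.21 and 8.85), and HFDC mice 2 and 3 (8.29 and 7.84) were below them. The Nsdhl differences from HF, 0.91 in HFCC (limma, adjusted p = 0.084) and -0.66 in HFDC (0.16) on the log2 scale, did not pass. The difference between the coffees, -1.57, did (adjusted p = 0.042). That call was kept under 8 of 26 other settings and lost under 18, with adjusted p-values from 0.0029 to 0.24, so it stands near the threshold. Ebp lay above the HF mean in all HFCC mice and below it in all HFDC mice. That difference, -0.32, did not pass over all genes (limma, adjusted p = 0.17), so the opposite directions of Ebp were not shown to differ. Groups of 3 mice are too small for a test of single outlying mice, and HFDC mouse 1 was therefore described by its values only.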

How the results depend on the processing

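The 8 calls of the coffee groups together against ND, the 10 of the F test and the 0 between HFGC and HFCC stayed within 1.5 times under every alternative run. None of the called differences changed direction. Recomputed under the alternatives other than the fit without HFDC, their values stayed past the threshold 396 times and did not 98 times. The cause of a lost call was not tested. In HF against ND the 8 calls became 5 with cyclic loess and 0 with the 3' minus 5' covariate, and ranged from 4 to 8 when single mice were left out. For Sc5d in HFCC against HF the count of 1 became 0 with probe sets averaged, every probe set tested, groups compared alone, a 1.5-fold minimum, the covariate, or the HFDC group left out, 2 over genes at or above the median level and 3 at an adjusted p under 0.10 (0 to 3 without single mice). HFDC against HF went from 0 to 1 over genes at or above the median level and to 2 at an adjusted p under 0.10 (0 to 5 without single mice). HFGC against HF went from 0 to 2 at an adjusted p under 0.10 (0 to 1 without single mice). The coffee groups together against HF went from 1 to 0 with probe sets averaged, a 1.5-fold minimum or the covariate (0 to 1 without single mice). HFDC against HFCC went from 1 to 0 with probe sets averaged, every probe set tested, cyclic loess, an offset of 32, groups compared alone or the trend and robust options, and to 4 at an adjusted p under 0.10 (0 to 8 without single mice). HFGC against HFDC ranged from 0 to 5 without single mice. The upper end in these comparisons of HFDC with HF, HFCC or HFGC came without HFDC mouse 1.

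The replicate numbers showed no sign of pairing the mice. The deviations of same-numbered mice correlated between -0.28 and 0.23 and exceeded 0.1 in 6 of 30 pairs. HF mouse 2 and HFCC mouse 1, with different numbers, correlated at 0.31. With 3 mice per group this check is weak, and a batch or cage shared by number was not tested. With a replicate block the HF against ND count was 6, and the 1 call of HFDC against HFCC became 0, while the other counts moved by less than 1.5 times. No detection calls were used here, so whether the dim probe sets rose above background is unknown.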
